A study of Homo sapiens with 12 samples.

Results

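The RNA of 9 genes of the serpin superfamily of protease inhibitors was followed in human fibroblasts that were growing or kept in low serum, with and without the LEO1 gene. The 9 genes, SERPINE2, SERPINF1, SERPINB1, SERPINB2, SERPINB6, SERPINB7, SERPINB8, SERPINH1 and SERPINI1, were taken as a list by their symbols from the 42 genes with a SERPIN symbol among the 60671 genes of the count table. The cells were BJ-5ta, a line of human skin fibroblasts immortalized with telomerase, either wild type (WT) or ΔLEO1, 1 clone in which LEO1, a subunit of the PAF1 complex that travels with RNA polymerase II, had been knocked out by CRISPR. Both genotypes were grown in 10% fetal bovine serum (WT_10 and Leo1_10) or kept for 10 days in 0.1% serum to induce quiescence (WT_01 and Leo1_01). There were 3 poly(A) RNA libraries per group, numbered 1 to 3 for WT_10, 4 to 6 for Leo1_10, 7 to 9 for WT_01 and 10 to 12 for Leo1_01. Synthetic ERCC transcripts had been added as spike-in controls.

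Most serpins inhibit serine proteases by a suicide mechanism: the protease cuts an exposed reactive loop, the loop inserts into the body of the serpin, and the protease is trapped in an inactive covalent complex. Some family members no longer inhibit proteases and act as chaperones or signaling factors. Secreted serpins control proteolysis around fibroblasts, while most members of clade B lack a classical signal peptide and work mainly inside the cell.

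Of the 9 genes, 5 belong to clade B and lie in 2 gene clusters (GRCh38, GENCODE). SERPINB7 (ENSG00000166396, chr18:63752935-63805376), SERPINB2 (ENSG00000197632, chr18:63871692-63903890) and SERPINB8 (ENSG00000166401, chr18:63969925-64019779) follow each other on the plus strand of chromosome 18. SERPINB1 (ENSG00000021355, chr6:2832332-2842006) and SERPINB6 (ENSG00000124570, chr6:2948159-2972165) lie on the minus strand of chromosome 6. The other members are dispersed: SERPINE2 (ENSG00000135919, chr2:223975112-224039319), SERPINF1 (ENSG00000132386, chr17:1761959-1777574), SERPINH1 (ENSG00000149257, chr11:75562056-75572783) and SERPINI1 (ENSG00000163536, chr3:167735243-167825568). SERPINB2 overlaps SERPINB10 over 6717 bases on the same strand, and 17.9% of the 58-base stretches of its transcripts also occur in SERPINB10 transcripts. For SERPINB8 8.63% of such stretches are shared, with HMSD on the same strand and with an antisense transcript, so the counts of SERPINB2 and SERPINB8 are uncertain to that extent.

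SERPINB2 and SERPINB7 had the largest decreases in low serum, and the sequence ahead of their start sites is shown for that reason. RefSeq (GRCh38.p14) lists start sites for 8 of the 9 genes, all but SERPINF1, and the 250 bases before each were searched on both strands for TGANTCA (a loose form of the AP-1 motif, with any base at N), CCAAT, GAANNTTC (a heat shock element) and TATAAA. Capitals mark matches to these motifs. Bases that GENCODE places in an exon were searched but are left out of the printed sequences. The first window is at chr18:63887455-63887699 and the second, before 1 of the 3 listed starts of SERPINB7, at chr18:63777531-63777776, both on the plus strand.
SERPINB2: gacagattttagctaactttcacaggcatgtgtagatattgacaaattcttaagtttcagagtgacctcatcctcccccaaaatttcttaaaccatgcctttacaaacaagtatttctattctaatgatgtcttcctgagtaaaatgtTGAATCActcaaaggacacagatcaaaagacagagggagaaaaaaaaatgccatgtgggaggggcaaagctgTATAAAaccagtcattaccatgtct
SERPINB7: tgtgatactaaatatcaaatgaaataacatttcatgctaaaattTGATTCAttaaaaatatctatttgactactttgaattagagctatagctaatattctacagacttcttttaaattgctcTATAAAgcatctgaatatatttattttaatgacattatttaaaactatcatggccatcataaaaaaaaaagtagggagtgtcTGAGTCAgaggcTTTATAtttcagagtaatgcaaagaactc
The SERPINB2 window held 1 TGANTCA, which began 102 bases before the start, and a TATAAA 30 bases before it. For SERPINB7, 2 of the 3 windows each held TGANTCA at 2 places, and in the printed one these began 206 and 45 bases before the start. SERPINB8 also had 2 matches, in a window that GENCODE places wholly in exons. No window of the other 5 genes had any. The motif thus occurred in a window of each of the 3 members on chromosome 18, with SERPINB7 having 3 windows. The shares that follow count windows and not genes. Of all 35116 windows of this length 6.57% held TGANTCA, 10.7% TATAAA, 32% CCAAT and 5.78% GAANNTTC. GAANNTTC lay 71 bases before 1 start of SERPINH1 and 51 bases before 1 of SERPINB7, and CCAAT before starts of SERPINE2 (at 7 places), SERPINB8 and SERPINH1. These matches are descriptions of the letters, and binding was not measured here.

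Gene counts per library ran from 26240632 to 45315560, and ERCC counts made up 0.625% to 3.24% of all counts. LEO1 had 682 to 1001 counts per library in WT cells and 23 to 55 in ΔLEO1 cells. The 10 fibroblast markers, such as COL1A1, DCN and PDGFRB, all exceeded 1 CPM (gene counts scaled to a common library total) in all 12 libraries. Of 7 epithelial markers 2, KRT8 and KRT18, did so, and their list summed to 318 to 462 CPM in WT_10, 165 to 181 in WT_01, 841 to 1141 in Leo1_10 and 510 to 585 in Leo1_01. CDH1 reached 1.42 CPM, while EPCAM, KRT5, KRT14 and KRT19 stayed under 1 CPM everywhere. Smooth muscle markers (2 of 4 over 1 CPM in every library) ran from 82.3 to 156 CPM in WT and from 132 to 214 in ΔLEO1 libraries. Endothelial and leukocyte lists summed to at most 5.52 and 9.10 CPM. In them TEK reached 4.78 CPM, PTPRC 7.10, CD14 1.43 and CD68 1.45. The other markers of these lists stayed under 1 CPM, with CDH5, KDR and ITGAM at 0 to 1 count. The part of these markers in the serpin results was not tested. The highest-numbered library of each group (3, 6, 9 and 12) stood apart: over genes, the chi-square per gene between the other 2 libraries of a group was 2.87 to 11.1, and 59.6 to 129 for the pairs that included it. Serpin calls that changed without these 4 libraries are given beside the results or in a paragraph after the comparisons. The labels do not say whether libraries came from separate cultures, so p-values measure only the spread between libraries, which may be technical, and for ΔLEO1 the spread within 1 clone.

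Levels are given on 2 scales. ERCC-scaled counts are counts divided by the ERCC counts of the library, on the scale of CPM, and follow the amount of a transcript relative to the spike-in. On this scale the median of the 13236 tested genes moved by −0.97 (log2) from 10% to 0.1% serum in WT cells and by −1.05 in ΔLEO1 cells, and it was 0.35 and 0.27 higher in ΔLEO1 than in WT cells in 10% and 0.1% serum. Fewer cells, less RNA per cell and unequal RNA input or spike-in dose cannot be told apart from these values. The paper gives a range for the RNA input and no value per library. Libraries of a group also differed over genes in general on this scale. In Leo1_01 the median ERCC-scaled level of the tested genes was 1062, 629 and 2035 in libraries 10, 11 and 12. In Leo1_10 it ran from 2099 to 3274, in WT_10 from 1408 to 2666 and in WT_01 from 814 to 1333. CPM and the gene scale (TMM factors computed on the genes) follow the share of a transcript among all mRNA, and there the medians were at most 0.02. Genes with an adjusted p below 0.05 (edgeR likelihood ratio test, Benjamini-Hochberg over all tested genes) on the ERCC scale were called. Log2 fold changes are given ± SE, group means ± SD with n = 3.

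In WT cells low serum raised SERPINF1 and lowered SERPINB1, SERPINB2, SERPINB7, SERPINB8 and SERPINH1 on the ERCC scale. SERPINE2 and SERPINB6 did not pass the test. Thus 1 of the 8 tested serpins was called higher, beside 0.944% of all tested genes, and 5 were called lower, beside 36.1%. The median log2 fold change of the 8 was -1.57, beside -0.97 for all tested genes. On the gene scale 2 were called higher (SERPINE2 and SERPINF1) beside 16% of all genes, and 4 lower (SERPINB1, SERPINB2, SERPINB7 and SERPINB8) beside 16.6%. The ninth gene, SERPINI1, did not exceed 1 CPM in 3 libraries and was not tested.

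The ΔLEO1 cells had the same 6 serpins called with the same directions in low serum: SERPINF1 higher, beside 0.975% of all tested genes, and SERPINB1, SERPINB2, SERPINB7, SERPINB8 and SERPINH1 lower, beside 47.2%. The median log2 fold change of the 8 was -1.24, beside -1.05 for all tested genes. With gene scaling SERPINE2, SERPINF1 and SERPINB6 were called higher, beside 16.5% of all genes, and SERPINB2 and SERPINB7 lower, beside 12.9%. SERPINB1, SERPINB8 and SERPINH1 had gene-scale values of -0.25 ± 0.11, -0.24 ± 0.18 and -0.18 ± 0.23, which did not pass the test (edgeR adjusted p = 0.0754, 0.321 and 0.597). All 3 passed without the highest-numbered libraries, as given with each gene, but those libraries were chosen for their distance from the others. In that fit 3749 of all tested genes were called lower, against 1710 with all libraries.

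**Figure D1:**
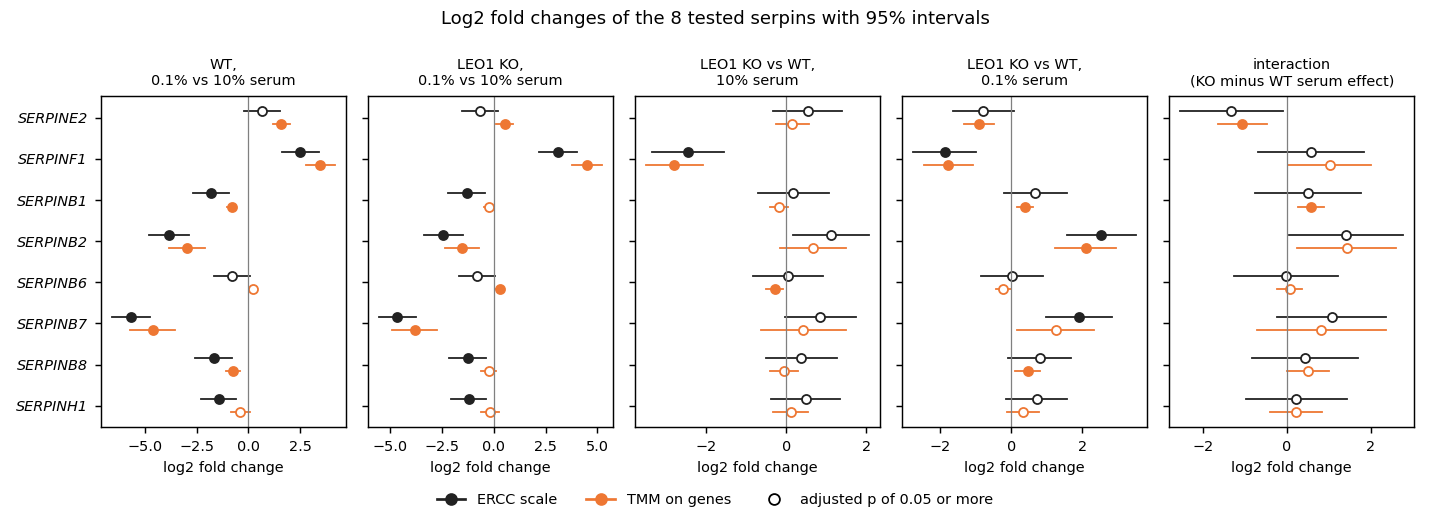
Log2 fold change (x axis) of the 8 tested serpins (y axis) in the 4 comparisons and the interaction, on the ERCC scale (black) and with TMM factors on the genes (orange). Lines are 95% intervals, filled points have an adjusted p below 0.05, and SERPINB7 in WT cells has the lowest value, -5.72 on the ERCC scale.

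SERPINF1 encodes pigment epithelium-derived factor, a secreted serpin without inhibitory activity that acts against angiogenesis. In WT cells it had 2565, 2322 and 1067 ERCC-scaled counts in 10% serum and 10297, 16621 and 7116 in 0.1% serum. In ΔLEO1 cells it had 509.7, 360.0 and 216 in 10% serum and 3922, 2770.5 and 2557 in 0.1% serum. Low serum was above 10% serum in every library of either genotype, and every ΔLEO1 library was below every WT library in the same serum. As a share of all mRNA the gene went from 19.3 ± 3.50 to 229 ± 43.0 CPM in WT and from 2.79 ± 0.643 to 65.1 ± 33.2 CPM in ΔLEO1 cells, 11.9-fold and 23.3-fold. Its serum effects on the gene scale were 3.48 ± 0.35 and 4.50 ± 0.36 (edgeR adjusted p = 4.41e-17 and 3.54e-25). Compared with WT, ΔLEO1 cells had 6.91-fold fewer CPM in 10% serum and 3.52-fold fewer in 0.1% serum. The interaction, the serum effect in ΔLEO1 minus that in WT cells, was 0.58 ± 0.65 on the ERCC scale (edgeR adjusted p = 1). Library 12, with 28.2 CPM against 74.5 and 92.5 in libraries 10 and 11, was the lowest of its group.

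SERPINE2 encodes protease nexin-1, a secreted inhibitor of thrombin, urokinase and tissue plasminogen activator. Its ERCC-scaled counts were 36778, 34325 and 21101 in WT_10 and 41834, 67032 and 35089.9 in WT_01. In ΔLEO1 cells they were 60413, 48811 and 24338 in 10% serum and 25282, 18904 and 39267 in 0.1% serum. The groups overlapped on this scale in both genotypes, and the log2 fold changes, 0.64 ± 0.44 in WT and -0.68 ± 0.44 in ΔLEO1 cells, had opposite signs and did not pass the test (edgeR adjusted p = 0.194 and 0.16). As a share of mRNA the gene was higher in low serum in every library, at 292, 327 and 304 CPM in WT_10 and 894, 1111 and 941 in WT_01. In ΔLEO1 cells it had 382, 419 and 231 CPM in 10% and 480.0, 631 and 433 in 0.1% serum, again without overlap. The gene-scale values were 1.59 ± 0.21 and 0.53 ± 0.21 (edgeR adjusted p = 1.35e-11 and 0.0464), and the second did not pass by the quasi-likelihood test (adjusted p = 0.0737). In 0.1% serum every ΔLEO1 library had fewer CPM than every WT library, with a gene-scale difference of -0.91 ± 0.21 (edgeR adjusted p = 0.000163).

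The serum effect on SERPINE2 was smaller in ΔLEO1 than in WT cells on the gene scale, with an interaction of -1.06 ± 0.30 (edgeR adjusted p = 0.0162), which the quasi-likelihood test did not call (adjusted p = 0.0967). It was -1.32 ± 0.62 on the ERCC scale, with an unadjusted p of 0.0344 and an adjusted p of 1 by the same test. Without the 4 highest-numbered libraries the ERCC-scale interaction was -1.92 (edgeR adjusted p = 0.0282), and the serum effect in ΔLEO1 cells was -1.31 (adjusted p = 0.000561). Those libraries were chosen for their distance from the others. In that fit the median interaction of all tested genes was -0.67, against -0.07 with all libraries. Interactions of 22 genes were called positive and of 110 negative, against 18 and 11. The median ΔLEO1 serum effect was -1.72, against -1.05, with 12241 genes called lower.

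SERPINI1 encodes neuroserpin, an inhibitor of tissue plasminogen activator best known from neurons. It had 12, 13 and 9 counts in WT_10, 6, 1 and 12 in WT_01, 37, 37 and 35 in Leo1_10 and 16, 20 and 45 in Leo1_01. Every ΔLEO1 library had more counts than every WT library in the same serum. When all 32285 genes with a count were tested, the difference between ΔLEO1 and WT cells was 1.85 (log2) in 10% serum and 2.52 in 0.1% serum (edgeR adjusted p = 0.0425 and 0.00403), while the serum effects of −1.77 and −1.11 did not pass (edgeR adjusted p = 0.064 and 0.151). These values rest on 1 to 45 counts per library.

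SERPINH1 encodes HSP47, a chaperone of the endoplasmic reticulum that binds folded procollagen and has no inhibitory activity. In WT cells it had 143885, 125338 and 78966 ERCC-scaled counts in 10% serum and 32936, 44408 and 50792 in 0.1% serum, without overlap. The ΔLEO1 libraries had 219581, 154299 and 112418 in 10% serum and 56039.5, 32823 and 120885 in 0.1% serum, where library 12 reached into the range of the 10% group. The median of all tested genes was also highest in library 12 of this group (2035, against 1062 and 629). The log2 fold changes were -1.44 ± 0.44 in WT and -1.21 ± 0.44 in ΔLEO1 cells (edgeR adjusted p = 0.00954 and 0.0246). The gene-scale values, -0.39 ± 0.23 and -0.18 ± 0.23, did not pass with all libraries (edgeR adjusted p = 0.176 and 0.597). Without the highest-numbered libraries they were -0.78 and -0.35 and passed (edgeR adjusted p = 3.7e-29 and 1.16e-06). Those libraries were chosen for their distance from the others, which lowers the spread by construction. In that fit 4082 and 3749 of all tested genes were called lower, against 2197 and 1710 with all libraries. Within WT_01 library 9 had 1362 CPM, and libraries 7 and 8 had 703 and 736. Without library 1 or library 7 the WT call was lost (largest adjusted p = 0.0948), and the ΔLEO1 call was lost without library 4, 5, 10 or 11 (largest adjusted p = 0.153). Fewer of all tested genes were then called lower too, in WT cells 1205 and 1147, against 4776 with all libraries. In ΔLEO1 cells they were 838, 3091, 638 and 1088, against 6253.

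**Figure D2:**
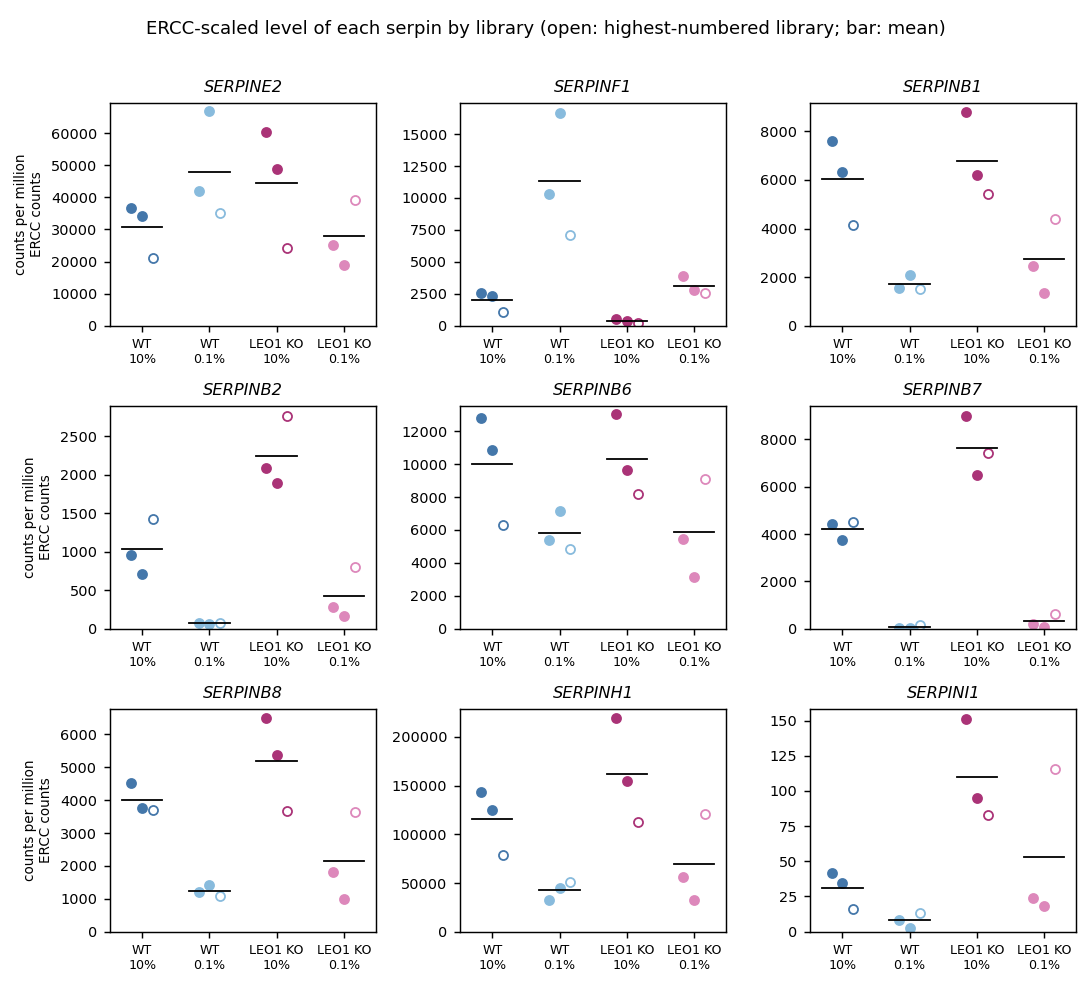
ERCC-scaled level (y axis, ERCC-scaled counts) of each of the 9 serpins in every library of the 4 groups (x axis), with the group mean as a bar and the highest-numbered library of each group as an open point. SERPINF1 is above its 10% serum level in every low-serum library, while SERPINB2 and SERPINB7 fall to low values in both genotypes.

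SERPINB2, plasminogen activator inhibitor 2, inhibits urokinase and is found both inside and outside cells. It had 961, 708 and 1419 ERCC-scaled counts in WT_10 and 72.3, 66.7 and 74.6 in WT_01. In ΔLEO1 cells the values were 2088, 1885 and 2758 in 10% serum and 280.2, 169 and 804 in 0.1% serum. Neither serum nor genotype groups overlapped on this scale. The serum effect was -3.85 ± 0.50 in WT and -2.43 ± 0.48 in ΔLEO1 cells (edgeR adjusted p = 3.78e-10 and 9.36e-05), and on the gene scale -2.98 ± 0.43 and -1.56 ± 0.42 (adjusted p = 2.7e-09 and 0.00201). In 0.1% serum ΔLEO1 cells had 4.27 times the CPM of WT cells, a gene-scale log2 difference of 2.09 ± 0.44, and on the ERCC scale the difference was 2.54 ± 0.50 (edgeR adjusted p = 3.91e-05). The ERCC-scale difference in 10% serum, 1.12 ± 0.48, did not pass (adjusted p = 0.167), but reached 1.25 with an adjusted p of 0.006 without the highest-numbered libraries. In that fit 966 of all tested genes were called higher, against 556 with all libraries. The interaction was 1.42 ± 0.69 (edgeR adjusted p = 1).

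SERPINB7, megsin, was named for its expression in the mesangial cells of the kidney and is also known from the epidermis. It had 1277, 1395 and 2551 counts in WT_10 and 26, 20 and 139 in WT_01, and 2201, 2520 and 3130 in Leo1_10 and 127, 93 and 250 in Leo1_01. Scaled to ERCC, WT cells went from 4415, 3741 and 4519.6 to 36.2, 46.0 and 155. ΔLEO1 cells went from 8975, 6480.4 and 7429 to 192, 85.6 and 642. This was the largest fold change among the 8 tested serpins in both genotypes, -5.72 ± 0.47 in WT and -4.65 ± 0.46 in ΔLEO1 cells (edgeR adjusted p = 8.4e-21 and 3.24e-15), and it was called on the gene scale too (-4.65 ± 0.55 and -3.82 ± 0.55). Libraries 9 and 12 were the highest of their groups in low serum, with 4.15 and 7.08 CPM, and libraries 7 and 8 had under 1 CPM. In 0.1% serum ΔLEO1 cells had more SERPINB7 RNA by 1.92 ± 0.47 (edgeR adjusted p = 0.0018), although library 9 overlapped with the ΔLEO1 group. That call was lost without library 7, 8 or 12, when the difference ran down to 0.77 (largest adjusted p = 0.31), with DESeq2 (adjusted p = 0.118) and on the gene scale (1.25 ± 0.56, edgeR adjusted p = 0.0753).

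SERPINB8, an inhibitor of furin, had 4525, 3759 and 3715 ERCC-scaled counts in WT_10 and 1217, 1414 and 1084 in WT_01. The ΔLEO1 values were 6500.0, 5372 and 3672 in 10% serum and 1819, 981 and 3647 in 0.1% serum. Every low-serum library was below every 10% serum library of its genotype, with log2 fold changes of -1.69 ± 0.46 in WT and -1.27 ± 0.46 in ΔLEO1 cells (edgeR adjusted p = 0.0037 and 0.0244). On the gene scale the WT decrease of -0.76 ± 0.18 passed (edgeR adjusted p = 0.000257) and the ΔLEO1 value of -0.24 ± 0.18 did not (edgeR adjusted p = 0.321), and the difference between these effects was not called (0.51 ± 0.25, edgeR adjusted p = 0.351). Without the highest-numbered libraries the ΔLEO1 value on that scale was -0.39 and passed as well (edgeR adjusted p = 1.82e-05). In that fit 3749 of all tested genes were called lower, against 1710 with all libraries. The ΔLEO1 call on the ERCC scale was lost without library 4, 5, 10 or 11 (largest adjusted p = 0.131). In those fits 838, 3091, 638 and 1088 of all tested genes were called lower in ΔLEO1 cells, against 6253 with all libraries.

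SERPINB1, the leukocyte elastase inhibitor, fell in both genotypes on the ERCC scale. It had 7623, 6317 and 4135 ERCC-scaled counts in WT_10 and 1536, 2089.7 and 1509 in WT_01. For ΔLEO1 the values were 8799.9, 6195 and 5402 in 10% serum and 2452, 1346 and 4407 in 0.1% serum. The changes were -1.82 ± 0.45 and -1.31 ± 0.45 (edgeR adjusted p = 0.0016 and 0.0209), the second of which was lost without library 4, 10 or 11 (largest adjusted p = 0.128). In those fits 838, 638 and 1088 of all tested genes were called lower in ΔLEO1 cells, against 6253 with all libraries. Its CPM were 60.0 ± 0.475 in WT_10 and 36.0 ± 4.02 in WT_01, against 53.3 ± 2.21 in Leo1_10 and 46.7 ± 1.82 in Leo1_01. The gene-scale value was -0.82 ± 0.11 in WT cells (edgeR adjusted p = 2.09e-11) and -0.25 ± 0.11 in ΔLEO1 cells (edgeR adjusted p = 0.0754). The latter passed by the quasi-likelihood test (adjusted p = 0.0499) and without the highest-numbered libraries (-0.27, edgeR adjusted p = 0.000863). Without those libraries 3749 of all tested genes were called lower on the gene scale, against 1710 with all libraries. On this scale the 2 serum effects differed by 0.57 ± 0.16 (interaction, edgeR adjusted p = 0.0137), while on the ERCC scale the interaction was 0.50 ± 0.64 (edgeR adjusted p = 1).

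SERPINB6, an intracellular inhibitor of cathepsin G and of trypsin-like proteases, lies in the same cluster as SERPINB1. Its ERCC-scaled counts were 12809, 10836 and 6307 in WT_10 and 5369, 7166 and 4863 in WT_01. The ΔLEO1 libraries had 13045, 9656 and 8184 in 10% serum and 5443, 3119 and 9074 in 0.1% serum, and the groups overlapped in both genotypes. The log2 fold changes, -0.78 ± 0.45 and -0.81 ± 0.45, did not pass the test (edgeR adjusted p = 0.129 and 0.105). Without the highest-numbered libraries they were -0.92 and -1.41 and passed (edgeR adjusted p = 0.0186 and 0.000157). In that fit 9506 and 12241 of all tested genes were called lower, against 4776 and 6253 with all libraries. As a share of mRNA SERPINB6 had the opposite direction: 98.5 ± 6.73 CPM in WT_10 and 121 ± 8.19 in WT_01, 81.0 ± 2.92 in Leo1_10 and 102 ± 2.17 in Leo1_01, every low-serum library being above every 10% serum library. The gene-scale change in ΔLEO1 cells of 0.28 ± 0.11 was called and the WT change of 0.22 ± 0.11 was not (edgeR adjusted p = 0.0371 and 0.116).

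**Figure D3:**
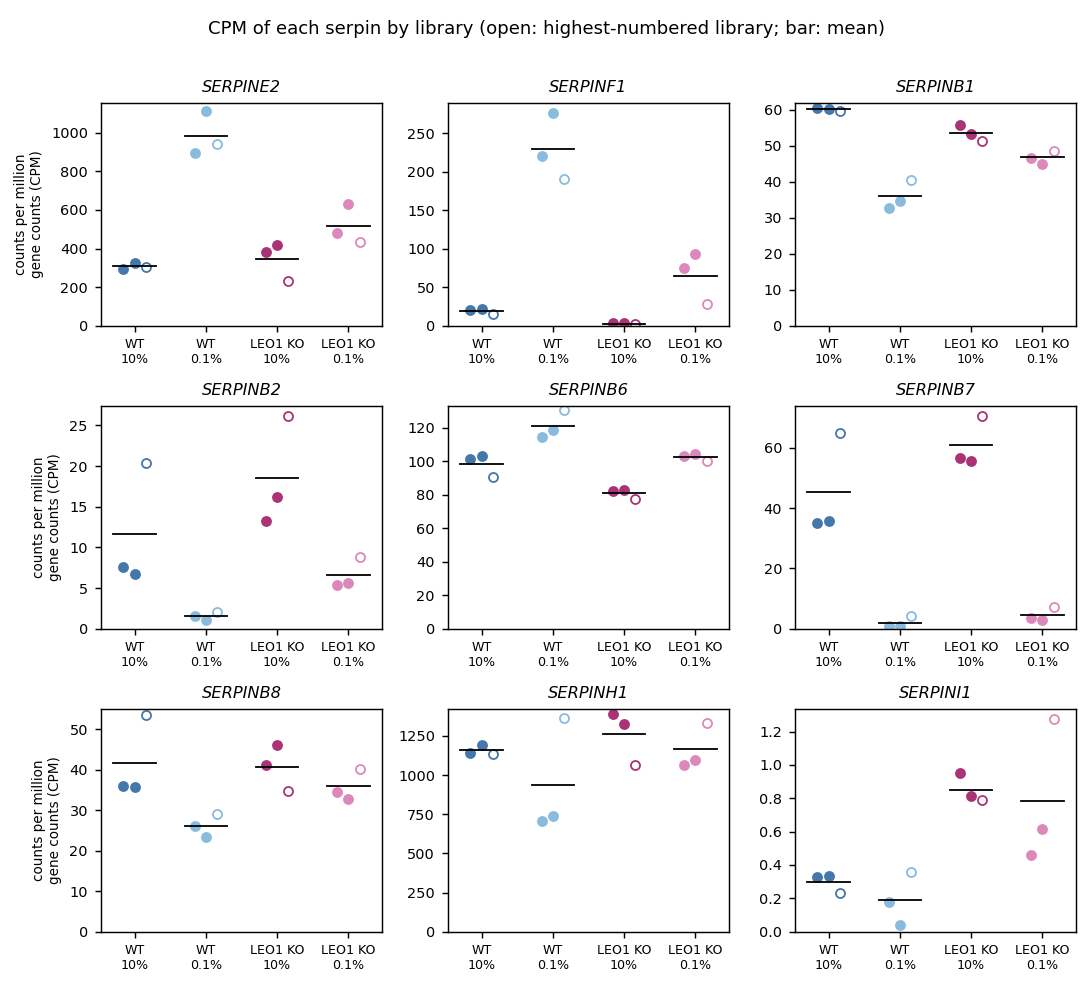
CPM (y axis) of each of the 9 serpins in every library of the 4 groups (x axis), with the group mean as a bar and the highest-numbered library as an open point. SERPINE2 and SERPINB6 are higher in 0.1% than in 10% serum in every library of each genotype, and SERPINB2 and SERPINB7 are lower.

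Between ΔLEO1 and WT cells in 10% serum, SERPINF1 was lower (-2.46 ± 0.46, edgeR adjusted p = 1.2e-05) and no other tested serpin was called. This is 1 of 8 called lower, beside 4.64% of all tested genes, and 0 called higher, beside 4.2%, where SERPINB2 had an unadjusted p of 0.0213 and was not called by the quasi-likelihood test or DESeq2 either. The remaining 7 had log2 differences from 0.04 (SERPINB6) to 1.12 (SERPINB2) on the ERCC scale, with a median of all 8 of 0.43 and of all genes of 0.35. SERPINB6 on the gene scale was also called lower (-0.29 ± 0.11, edgeR adjusted p = 0.0227), so that 2 of 8 were called lower beside 21.8% of all genes. None was called higher by either edgeR test on the groups alone, beside 17.7% by the likelihood ratio test. With the highest-numbered library as a covariate, an alternative added after seeing the data, SERPINB2 was called higher on that scale (0.77, edgeR adjusted p = 0.00129). For the others the 95% intervals on the ERCC scale reached from -0.33 to 1.40 for SERPINE2 and from -0.37 to 1.34 for SERPINH1.

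In 0.1% serum the ΔLEO1 cells had less SERPINF1 and more SERPINB2 and SERPINB7 than WT cells. Thus 2 of 8 tested serpins were called higher, beside 3.85% of all tested genes, and 1 lower, beside 3.59%. The SERPINF1 difference was -1.88 ± 0.45 (edgeR adjusted p = 0.00139), which did not pass without library 8 (-1.5, adjusted p = 0.0593). The SERPINB7 call was lost without library 7, 8 or 12, with DESeq2 and on the gene scale, as given with that gene. The median of the 8 was 0.69, beside 0.27 for all genes. With gene scaling SERPINB1 (0.39 ± 0.11), SERPINB2 (2.09 ± 0.44) and SERPINB8 (0.47 ± 0.18) were called higher, beside 15.4% of all genes, and SERPINE2 and SERPINF1 lower, beside 17.6%. SERPINH1 had 0.33 ± 0.23 (edgeR adjusted p = 0.276). The 4 comparisons share their libraries in pairs, so the values of a serpin in one are not independent of those in another.

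Whether low serum changed the serpins differently in the 2 genotypes was tested by the interaction. On the ERCC scale 0 of 8 serpins were called by the likelihood ratio test, 0 by the quasi-likelihood test and 0 by DESeq2, beside 0.219%, 0.174% and 0.136% of all tested genes, while SERPINE2 and SERPINB2 had an unadjusted p below 0.05 (0.0344 and 0.0416). On the gene scale SERPINE2 and SERPINB1 were called, beside 4.08% of all genes, and of these the quasi-likelihood test called SERPINB1 only. The median interaction of the 8 was 0.46 on the ERCC scale and 0.54 on the gene scale, beside -0.07 and 0.02 for all genes. Intervals were wide on the ERCC scale, from -0.68 to 1.84 for SERPINF1 and from -0.22 to 2.35 for SERPINB7.

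Without the 4 highest-numbered libraries more serpins were called, as were more of all genes. On the ERCC scale SERPINB6 joined the serpins lowered by low serum in WT cells, and SERPINB6 and SERPINE2 those lowered in ΔLEO1 cells, beside 9506 and 12241 of all 13236 tested genes called lower. With gene scaling SERPINH1 joined those lowered in WT cells, and SERPINB1, SERPINB8 and SERPINH1 those lowered in ΔLEO1 cells, beside 4082 and 3749 genes called lower. Between the genotypes, on the ERCC scale, SERPINB2 was then called higher in 10% serum and SERPINE2 lower in 0.1% serum. On the gene scale all 8 serpins were called in 10% serum, SERPINF1, SERPINB1 and SERPINB6 lower and the other 5 higher in ΔLEO1 cells, beside 4306 genes lower and 4101 higher. In 0.1% serum 7 were called, SERPINE2 and SERPINF1 lower and all others but SERPINB6 higher, beside 3935 and 4124 genes. The interaction was called for 6 serpins on that scale, negative for SERPINE2 and positive for SERPINF1, SERPINB1, SERPINB2, SERPINB7 and SERPINH1, beside 1304 and 2290 genes. These fits were added after the data had been seen for the gene scale, and the libraries left out were chosen for their distance from the others, which lowers the spread by construction.

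Levels were compared between members as CPM per kilobase of annotated exon. SERPINH1 had the highest mean in all 4 groups, 184 ± 4.99 in WT_10, 149 ± 59.1 in WT_01, 201 ± 27.1 in Leo1_10 and 185 ± 23.4 in Leo1_01, and SERPINI1 the lowest, 0.0792 to 0.353. SERPINE2 had the second highest mean in each group, with 34.6 ± 2.0 in WT_10, 110.4 ± 12.9 in WT_01, where its libraries overlapped in range with those of SERPINH1, and 38.7 ± 11.2 in Leo1_10, where they overlapped with those of SERPINB7. In WT_10 the order continued with SERPINB1 and SERPINB7, which overlapped, then SERPINB6, SERPINB8, SERPINF1 and SERPINB2, each of which overlapped with its neighbor. In WT_01 SERPINF1 stood at rank 3, with 74.5 ± 14.0, below SERPINE2 and above SERPINB1 at 11.6 ± 1.30 without overlap, and SERPINB7 and SERPINB2 stood before SERPINI1 at 0.719 ± 0.741 and 0.564 ± 0.163, with overlapping ranges. In Leo1_10 SERPINF1 was last but one, at 0.908 ± 0.209, and in Leo1_01 at rank 3, with 21.2 ± 10.8, overlapping with SERPINB1. The order rests on the length used, since with the longest transcript in place of all exons SERPINB6 had 17.5 CPM per kilobase in WT_10 in place of 7.46.

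**Figure D4:**
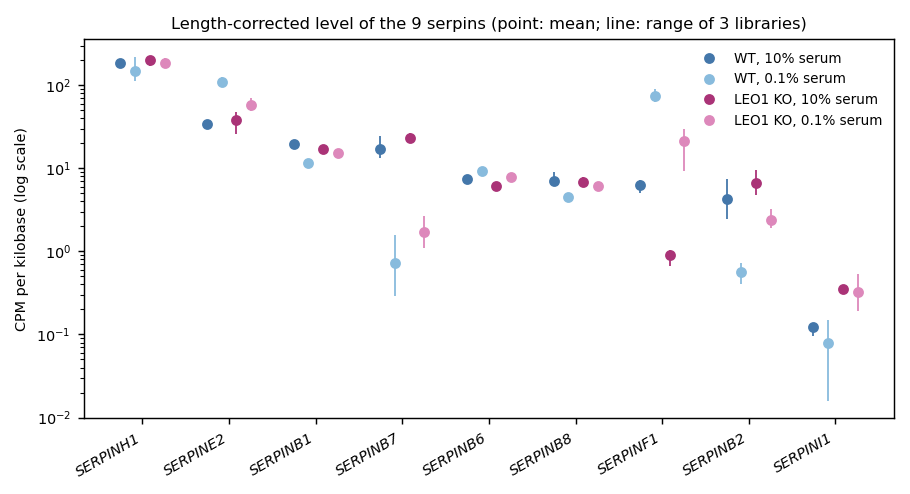
Level of the 9 serpins (x axis) as CPM per kilobase of annotated exon (y axis, log scale) in the 4 groups, with the mean as a point and the range of 3 libraries as a line. SERPINH1 is highest in each group, and the rank of SERPINF1 runs from 3 to 8 and that of SERPINB7 from 3 to 8 between the groups.

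Of the other 33 genes with a SERPIN symbol, 20 had a count, and SERPING1, SERPINB9 and SERPINB10 were among those that passed the filter. SERPINB10 and SERPINB9, which lie within the clusters on chromosomes 18 and 6, were called lower in low serum in WT cells (-4.81 ± 0.76 and -2.93 ± 0.60, edgeR adjusted p = 1.35e-09 and 5.54e-05) and in ΔLEO1 cells (-2.53 ± 0.52 and -1.81 ± 0.52, edgeR adjusted p = 0.000199 and 0.00858). Thus SERPINB7, SERPINB2, SERPINB10 and SERPINB8, neighbors on chromosome 18, were all called lower on the ERCC scale in WT and in ΔLEO1 cells, beside 36.1% and 47.2% of all genes, with the losses given above for SERPINB8, and of the neighbors on chromosome 6 SERPINB1 and SERPINB9 were and SERPINB6 was not. Both SERPINB10 and SERPINB9 were called higher in ΔLEO1 than in WT cells in 10% serum (2.02 ± 0.53 and 1.78 ± 0.53, edgeR adjusted p = 0.00343 and 0.0146) and in 0.1% serum (4.31 ± 0.76 and 2.91 ± 0.60, edgeR adjusted p = 5.07e-08 and 5.53e-05), beside 4.2% and 3.85% of all tested genes. SERPINB10 had 1 to 5 counts in WT_01 and at most 227 elsewhere, and it shares sequence with SERPINB2. SERPINB9 had 4 to 11 counts in WT_01 and at most 127 elsewhere. Both genes passed the filter only through the ΔLEO1 libraries, which were all over 1 CPM, while every WT_01 library was under it. Their higher level in ΔLEO1 cells was thus favored by the filter. SERPING1, the C1 inhibitor of the complement system, was lower in ΔLEO1 cells in 10% serum (-1.37 ± 0.45, edgeR adjusted p = 0.0338), but not by the quasi-likelihood test (adjusted p = 0.0549). It was not called in 0.1% serum on the ERCC scale. Its CPM did not overlap between genotypes, at 93.8 to 129 in WT_10 and 33.5 to 37.7 in Leo1_10. In low serum they were higher in both genotypes, at 228 to 263 in WT_01 and 81.1 to 96.4 in Leo1_01.

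The proteases and receptors that secreted serpins meet were described as a list of 18 genes of the plasminogen and thrombin system, of which 15 were tested. In WT cells 1 was called higher and 4 lower in low serum, with a median of -0.59 beside -0.97 for all genes, of which 0.944% and 36.1% were called. On the gene scale the balance was the reverse, with 6 higher and 1 lower in WT and 6 higher and 0 lower in ΔLEO1 cells, beside 16%, 16.6%, 16.5% and 12.9% of all genes. On the ERCC scale in WT cells F2RL1, a protease-activated receptor, rose (2.54 ± 0.55, edgeR adjusted p = 0.000218), and F3, tissue factor, fell (-1.48 ± 0.44, edgeR adjusted p = 0.00897). In ΔLEO1 cells 2 were called higher (1 by the quasi-likelihood test) and 5 lower on that scale, beside 0.975% and 47.2% of all genes, the former F2RL1 (1.19 ± 0.50) and TFPI2 (1.46 ± 0.52), the latter with PLAU (-1.41 ± 0.47) and PLAT (-1.30 ± 0.45), the urokinase and tissue plasminogen activators that SERPINE2 and SERPINB2 inhibit (edgeR adjusted p = 0.0186 and 0.0208). Relative to the other genes PLAU and PLAT were not called in ΔLEO1 cells (-0.33 and 0.01, edgeR adjusted p = 0.372 and 0.99), and PLAT had a mean of 129.8 CPM in 10% and 135 in 0.1% serum. Between the genotypes in 10% serum 3 were higher in ΔLEO1 cells, among them F2RL1 (3.74 ± 0.55, edgeR adjusted p = 1.06e-08) and F3 (1.88 ± 0.44, edgeR adjusted p = 0.000902), and 1 was lower, the protease inhibitor TFPI2 (-3.34 ± 0.52, edgeR adjusted p = 9.08e-08). Of all tested genes 4.2% were called higher and 4.64% lower. F2RL1 had only 6 to 17 counts per library in WT_10. In 0.1% serum 2, F3 and F2RL1, were higher and 0 lower by the likelihood ratio test, the quasi-likelihood test and DESeq2, with 1 lower at an unadjusted p below 0.05. By the likelihood ratio test 3.85% of all tested genes were higher and 3.59% lower. PLG and F2, the genes of plasminogen and prothrombin, did not pass the filter.

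Receptors reported for pigment epithelium-derived factor, the product of SERPINF1, were a list of 6, of which 5 were tested. PLXDC1 was called lower in ΔLEO1 than in WT cells in 10% serum (-1.66 ± 0.56, edgeR adjusted p = 0.037) and in 0.1% serum (-2.50 ± 0.58, edgeR adjusted p = 0.000713), beside 4.64% and 3.59% of all genes. In 10% serum it was not called by the quasi-likelihood test or DESeq2. It had 27 to 79 counts per WT library and 8 to 39 per ΔLEO1 library. Every ΔLEO1 library was under 1 CPM, so PLXDC1 passed the filter through WT libraries only, which favored a lower level in ΔLEO1 cells. The other 4 were not called between genotypes on the ERCC scale. On the gene scale 3 of them (ATP5F1B, PNPLA2 and RPSA) were higher in ΔLEO1 cells in either serum, beside 17.7% of all genes in 10% and 15.4% in 0.1% serum. In low serum 2 were called lower in WT and 3 in ΔLEO1 cells, PNPLA2 and ATP5F1B in both and PLXDC1 in ΔLEO1 cells. These serum calls stand beside 36.1% and 47.2% of all genes called lower, and on the gene scale 2 and 1 were called lower, beside 16.6% and 12.9%. The ERCC-scale medians of the list were -0.92 and -1.46.

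Collagens and the collagen-modifying proteins of the endoplasmic reticulum, among which HSP47 works, were a list of 24, all tested. In low serum 16 were called lower in WT and 20 in ΔLEO1 cells, with medians of -1.14 and -1.38 beside -0.97 and -1.05 for all genes, of which 36.1% and 47.2% were called lower. PLOD2, a lysyl hydroxylase (-2.26 ± 0.44, edgeR adjusted p = 4.65e-05), and COL1A1 (-1.95 ± 0.43, edgeR adjusted p = 0.000356) were among the 4 with the smallest adjusted p in WT cells, with COL5A2 and KDELR3, a receptor that returns proteins such as HSP47 to the endoplasmic reticulum. The gene scale gave 9 lower in either genotype, beside 16.6% and 12.9% of all genes, with 2 higher in WT and 1 in ΔLEO1 cells, beside 16% and 16.5%. Between the genotypes 0 were called on the ERCC scale by either edgeR test or DESeq2, with 1 higher at an unadjusted p below 0.05 in each serum, while on the gene scale 4 were higher and 3 lower in 10% serum, beside 17.7% and 21.8% of all genes, and 2 higher and 6 lower in 0.1% serum, beside 15.4% and 17.6%.

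Of 10 proteases that clade B serpins are known to inhibit, 4 were tested (CASP1, PLAU, PLAT and FURIN), and elastase, proteinase 3, cathepsin G and KLK8 did not pass the filter. In WT cells 0 were called in low serum on the ERCC scale by either edgeR test or DESeq2 (1 lower at an unadjusted p below 0.05), and in ΔLEO1 cells PLAU and PLAT were lower on that scale, beside 47.2% of all genes, and on the gene scale none of the 4 was called in ΔLEO1 cells by the likelihood ratio test. CASP1, the caspase that activates interleukin-1 beta, was higher in ΔLEO1 than in WT cells in 10% serum (1.39 ± 0.46, edgeR adjusted p = 0.0344), but not by the quasi-likelihood test (adjusted p = 0.0556).

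The patterns of the members over the 12 libraries were compared as log2 CPM (TMM on the genes) by Pearson's r, as a description, since the libraries share groups and 4 of them stood apart. SERPINB7 ran with SERPINB1 (0.92), SERPINB2 (0.91) and SERPINB8 (0.85), and against SERPINF1 (−0.91) and SERPINE2 (−0.89). SERPINF1 and SERPINE2 had an r of 0.83, and SERPINF1 and SERPINB6 0.92. SERPINH1 was the least like the others, with values from −0.62 to 0.74. Among tested genes with a mean of at least 10 CPM, the 3 most like SERPINF1 were NBL1, COL6A1 and SECTM1 (0.99 each), and those most like SERPINE2 were SRPX2, RNASET2 and FXYD5 (0.95, 0.95 and 0.94). SERPINB1 was nearest to KPNB1, SLC44A2 and CHPF (0.97, 0.97 and 0.96), SERPINB2 to DNAJB6, ACTR3 and AP2M1 (0.99, 0.99 and 0.98), and SERPINB7 to MARCHF4, SNF8 and ELOVL1 (0.99, 0.99 and 0.98). For SERPINB6 the nearest were PDGFRL, TYRO3 and IDUA (0.97 each), for SERPINB8 TEAD4, FLII and SPRYD7 (0.94, 0.94 and 0.93), and for SERPINH1 MTHFD2, CDK2AP2 and DAGLB (0.94, 0.93 and 0.92). With ERCC-scaled counts 2 of the 3 genes were found again for SERPINB8 and SERPINH1, 1 for SERPINB1 and 0 for the other 5 members.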

How the data were processed

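The authors sequenced stranded poly(A) RNA libraries with ERCC spike-ins, aligned the reads with STAR (2.7.10a in the submitters' processing notes) to GRCh38 and deposited raw counts per gene and per ERCC transcript from featureCounts 1.5.1, after bcl2fastq 2.20.0.422. The annotation release and strand setting are not given in the sources used here. The deposited lists of fold changes were not used.

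Genes with more than 1 CPM in at least 3 libraries (13236) were tested with R 4.3.3 and edgeR 4.0.16 (glmFit and glmLRT, two-sided, 4 groups in 1 fit of 12 libraries), with ERCC totals times TMM factors of the ERCC transcripts as library sizes. The likelihood ratio test was chosen because the authors' lists carry its statistic. P-values were adjusted by Benjamini-Hochberg, and 0.05 was the threshold. Alternatives were the quasi-likelihood test, DESeq2 1.42.0, scaling on the genes, other filters, and fits without libraries. Scripts were tested on simulated data. Gene counts per library ran from 26240632 to 45315560.

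Gene positions came from GENCODE and start sites from RefSeq. The 9 serpins and the other gene lists were chosen with earlier results of these data known. From each list the up to 4 genes with the smallest adjusted p in a comparison could be named, and for each serpin the 3 tested genes with at least 10 CPM and the highest correlation. Groups came from the sample labels. Some genes of these lists are not reported here.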

Additional observations from a re-analysis of the deposited data

Results flagged for a closer look

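The serum effects on SERPINE2 and SERPINB1 differed between the genotypes by the test of the interaction with TMM factors on the genes. For SERPINE2 the serum effect in ΔLEO1 minus that in WT cells was -1.06 (log2, edgeR adjusted p = 0.0162), and every low-serum library was above every 10% serum library of its genotype in CPM. By the quasi-likelihood test on the same scale its adjusted p was 0.0967. For SERPINB1 the interaction was 0.57 (edgeR adjusted p = 0.0137, and 0.0392 by the quasi-likelihood test), with every low-serum library below every 10% serum library of its genotype. On the ERCC scale neither passed, at -1.32 and 0.50 (edgeR adjusted p = 1 for both).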

How the results depend on the processing

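Leaving out 1 library at a time gave 5 to 7 called serpins for the WT serum effect, 3 to 8 for the ΔLEO1 serum effect, 1 to 2 for ΔLEO1 against WT in 10% serum, 1 to 4 in 0.1% serum and 0 to 0 for the interaction. In these fits 1147 to 8603 of all 13236 tested genes were called lower for the WT serum effect and 638 to 11684 for the ΔLEO1 serum effect. Between the genotypes 367 to 1092 were called higher and 419 to 821 lower in 10% serum. In 0.1% serum 315 to 1340 were higher and 347 to 1039 lower. After summing libraries other than the highest-numbered within each group, 3, 2 and 1 serpins were called for the WT and ΔLEO1 serum effects and for the genotypes in 0.1% serum, and 3 for the ΔLEO1 serum effect in a fit to its own libraries. For the ΔLEO1 serum effect 129 of all tested genes were called higher and 6253 lower in the main fit. After summing these were 47 and 203, and in the fit to its own libraries 73 and 1642. Between the genotypes in 10% serum 2 serpins were called with TMM or DESeq2 size factors on the genes, without a filter, with filterByExpr, in a fit to the libraries compared, without the highest-numbered libraries and by the quasi-likelihood test on the gene scale. Over all genes 556 were called higher and 614 lower there in the main fit, and 2344 and 2880 with TMM on the genes. Without a filter they were 1115 and 803 of 32285 genes, and with filterByExpr 870 and 782 of 15722. In the fit to the libraries compared they were 1043 and 794, and without the highest-numbered libraries 966 and 958. In 0.1% serum 5 were called with TMM or DESeq2 size factors on the genes and by the quasi-likelihood test on the gene scale. The interaction gave 2 with TMM or DESeq2 size factors on the genes, 1 without the highest-numbered libraries and 1 by the gene-scale quasi-likelihood test. Over all tested genes 18 interactions were called positive and 11 negative in the main fit, and 405 and 135 with TMM on the genes. Without the highest-numbered libraries they were 22 and 110, and by the gene-scale quasi-likelihood test 205 and 60. With settings added after seeing the data, TMM on the genes without the highest-numbered libraries gave 8, 7 and 6 for the genotypes in 10% and 0.1% serum and the interaction, and TMM with the highest-numbered library as a covariate 3, 6 and 3. With that covariate 2667 of all tested genes were called higher and 3147 lower in 10% serum. In 0.1% serum they were 2358 and 2580, and for the interaction 626 positive and 219 negative. Over all tested genes, 125 were called higher and 4776 lower for the WT serum effect, against 198 and 9506 without the highest-numbered libraries, 61 and 606 with the other libraries summed and 2117 and 2197 with TMM on the genes. Between the genotypes in 0.1% serum these counts were 509 and 475, 378 and 2195, 354 and 244, and 2033 and 2333. The causes of these changes were not tested. SERPINF1, SERPINB2 and SERPINB7 kept their serum calls in every fit without 1 library. No paired analysis was possible because libraries of different groups share no replicate number.

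Some values changed sign. SERPINB6 in the WT serum effect had 0.22 and 0.10 on the gene scale. SERPINE2 in the ΔLEO1 serum effect had 0.53, 0.45 and 0.54 on the gene scale. SERPINB6 in the ΔLEO1 serum effect had 0.28 and 0.31 on the gene scale. SERPINB1 in ΔLEO1 against WT in 10% serum had -0.18, -0.17 and -0.16 on the gene scale and -0.042 to 0.40 when 1 library at a time was left out. SERPINB6 in ΔLEO1 against WT in 10% serum had -0.29, -0.28 and -0.32 on the gene scale, -0.059 without the highest-numbered libraries and -0.20 to 0.28 when 1 library at a time was left out. SERPINB8 in ΔLEO1 against WT in 10% serum had -0.048, -0.039 and -0.023 on the gene scale. SERPINB6 in ΔLEO1 against WT in 0.1% serum had -0.23, -0.22 and -0.12 on the gene scale, -0.55 without the highest-numbered libraries and -0.44 to 0.32 when 1 library at a time was left out. SERPINB6 in the interaction had 0.065, 0.061, 0.21 and 0.062 on the gene scale, 0.16 with the other libraries summed and -0.48 to 0.28 when 1 library at a time was left out. SERPINB1 in the interaction had -0.038 without the highest-numbered libraries and -0.024 to 0.83 when 1 library at a time was left out. SERPINB7 in the interaction had -0.084 to 2.04 when 1 library at a time was left out. SERPINB8 in the interaction had -0.43 without the highest-numbered libraries and -0.20 to 0.77 when 1 library at a time was left out. SERPINH1 in the interaction had -0.27 without the highest-numbered libraries and -0.43 to 0.57 when 1 library at a time was left out.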
